A study of Homo sapiens with 6 samples.

Results

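The 48 genes described here encode proteins that license, start and carry out DNA replication, together with regulators of the passage from G1 into S phase of the cell cycle. They were chosen by gene symbol, from the origin recognition complex to the chromatin factors that follow the replication fork, and all 48 were found among the 60664 genes of the expression table. RNA was sequenced from 67R cells, a line derived from NCI-H1975 lung adenocarcinoma cells, which carry mutant EGFR, by growth in rising doses of the EGFR inhibitor ASK120067 until they resisted it. The 6 libraries fall into 2 groups: 3 from cells transfected with a negative control siRNA (NC) and 3 with an siRNA against BCAT1 (siBCAT1). BCAT1 is the cytosolic enzyme that reversibly moves the amino group of branched-chain amino acids onto alpha-ketoglutarate. Both groups are the same resistant line, with no parental cells among them. The methods list a pair of siRNAs against BCAT1, 1 of which carries the name siBCAT1, and the time between transfection and harvest is not given in the sources used here. The methods speak of independent experiments for the study in general, but neither they nor the labels say of these 3 libraries of a group that they came from separate cultures, so the p-values below measure the spread between these libraries, which may be technical.

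Replication in human cells is prepared in G1, when the origin recognition complex with CDC6 and CDT1 loads the ring-shaped MCM helicase onto DNA in an inactive form. At the start of S phase the kinases CDC7-DBF4 and CDK2-cyclin E drive the binding of CDC45 and GINS to the ring, which completes the active helicase, and polymerase alpha-primase, polymerases delta and epsilon, the sliding clamp PCNA and its loader then copy the DNA. Many of these genes are targets of the E2F transcription factors, which are held back by the retinoblastoma protein until cyclin D and cyclin E kinases phosphorylate it.

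Levels are given in TPM, the share of transcripts corrected for gene length, a unit that carries no sequencing depth, so no counting error can be attached to a single value. The libraries summed to between 992512 and 995593 TPM and listed between 23152 and 25043 genes above 0. Epithelial keratins were abundant in every library, while EPCAM lay between 0.91 and 2.61 TPM, and the lung adenocarcinoma markers NKX2-1 and NAPSA together reached at most 0.33 TPM, so those markers of the labelled tissue were absent. The summed epithelial markers were lower after knockdown, at 1647 to 1935 TPM against 2546 to 2948 TPM, with 5 of 6 passing the test as lower. EPCAM went the other way, from 1.27 to 2.33 TPM, without overlap but not past the test (0.56, limma adjusted p = 0.0732). Summed leukocyte markers reached at most 3.67 TPM and endothelial markers 2.61 TPM, while the fibroblast list summed to 252 to 274 TPM in NC and 189 to 244 TPM in siBCAT1, nearly all of it COL1A2, with DCN at 0. The part of these shifts in the results below was not tested. BCAT1 itself read 42.7, 42.2 and 29.8 TPM in NC and 8.78, 7.10 and 8.0 TPM in siBCAT1. Its groups did not overlap, and its level fell by 2.12 on the log2 scale (SE 0.15, limma adjusted p = 0.000272).

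Of the 48 replication genes, 24 rose after BCAT1 knockdown and 1, CCNE1, fell, while 23 did not pass the test (limma on log2(TPM + 1), Benjamini-Hochberg adjusted p under 0.05 over the 14286 genes that averaged 1 TPM or more). Over all tested genes 16.7% were called higher and 10.4% lower. The 48 genes are all well expressed, each averaging 5 TPM or more, and among the tested genes at that level 20.4% were called higher. The log2 fold change was above 0 for 44 of the 48, with a median of 0.32 against 0.04 over all tested genes. In 30 of them all 3 siBCAT1 values lay above all 3 NC values, an arrangement found in 26.1% of all tested genes. In 3 all siBCAT1 values lay below all NC values, against 2566 of the 14286 tested genes. Mean levels over the 6 libraries ran from 6.37 TPM for E2F2 to 306.7 TPM for PCNA, and the median GC content of the transcripts was 48%, against 48.5% over the tested genes. The changes were moderate in size. Among the 24 that rose, the log2 fold change ran from 0.29 to 0.99 and the ratio of group means from 1.22 to 2.01. The log2 scale with 1 TPM added understates the change of genes with low levels, and in bulk RNA a larger share of cells in S phase and more RNA per cell cannot be told apart.

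**Figure D1:**
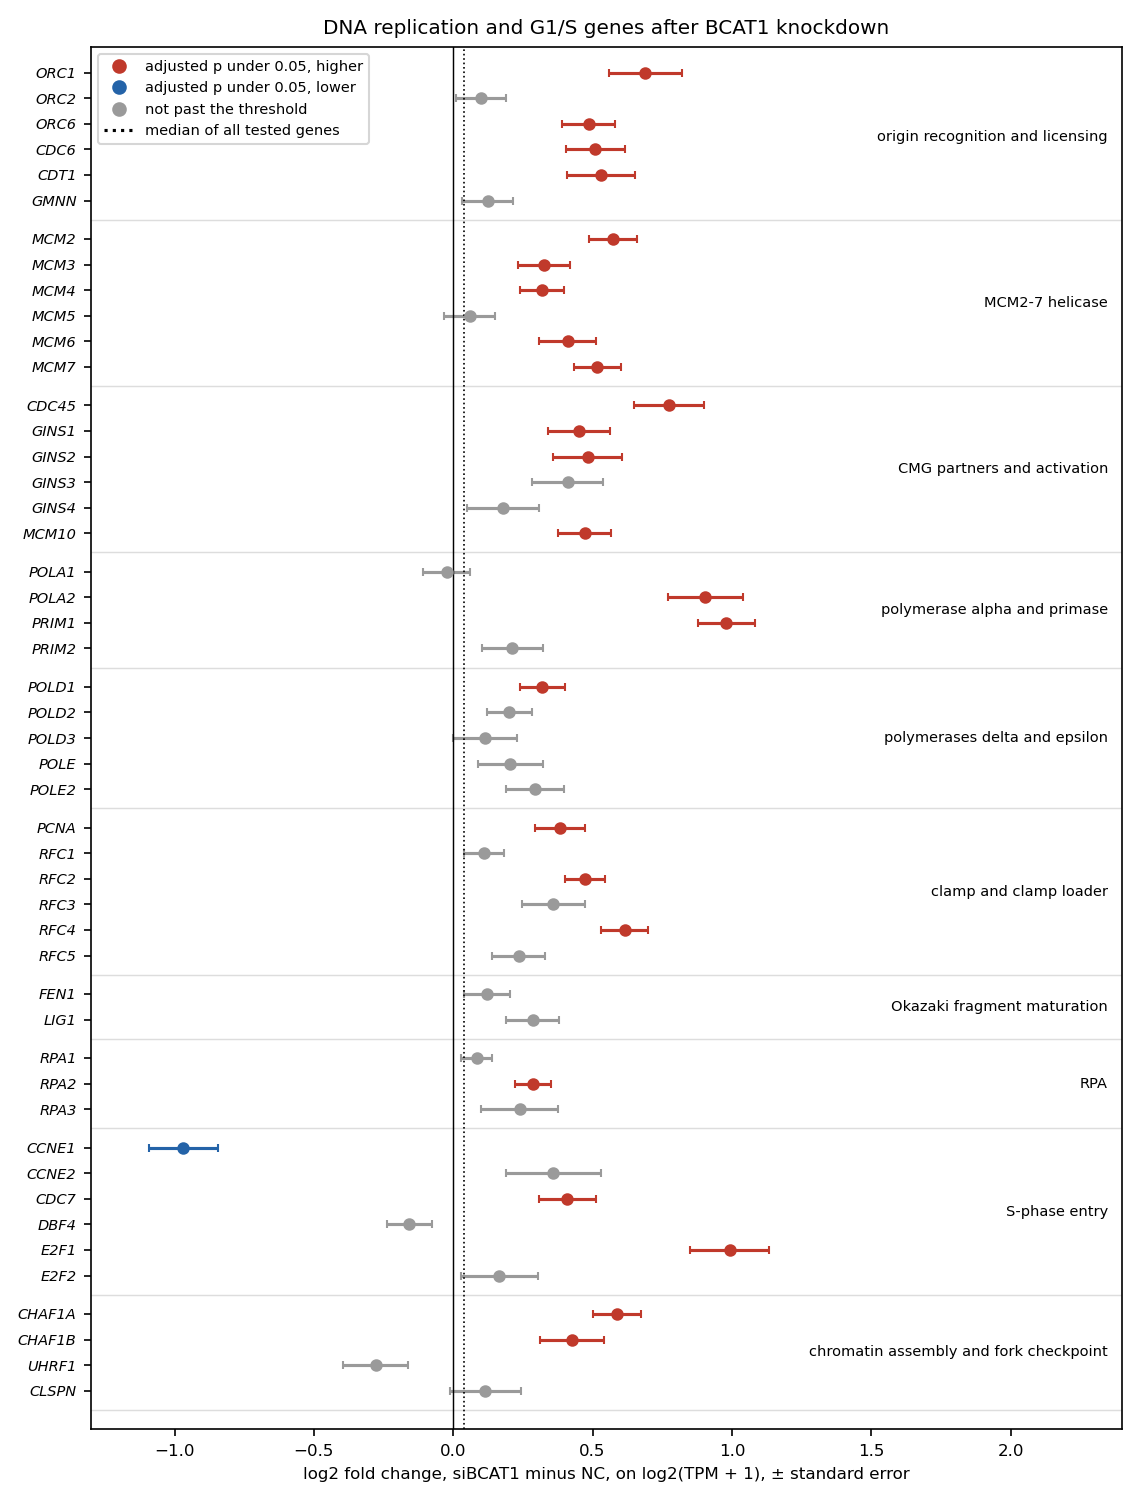
Log2 fold change of each gene (siBCAT1 minus NC, on log2(TPM + 1), horizontal axis), with bars of ± 1 standard error, grouped by role. Red marks the 24 genes past the threshold and higher, blue the 1 that was lower (CCNE1), grey the 23 others, and the dotted line the median of all tested genes, 0.04.

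The count of genes that rose depended on single libraries more than the direction did. Leaving out NC replicate 1 or siBCAT1 replicate 2 left 12 genes called higher, leaving out NC replicate 3 left 13, and leaving out siBCAT1 replicate 1 left 15. Under all 16 refits of each gene with another setting or without 1 library, 12 of the 25 calls held: ORC1, ORC6, MCM2, MCM7, CDC45, POLA2, PRIM1, RFC2, RFC4, E2F1 and CHAF1A on the higher side and CCNE1 on the lower. No call held where a log2 fold change of at least 1 was required as well. Of the other calls, those of CDT1, MCM3, MCM4, MCM6, GINS1, GINS2, POLD1, PCNA, CDC7 and CHAF1B were lost with no filter on low values, those of CDT1, MCM3, MCM4, MCM6, POLD1, PCNA and RPA2 under median-ratio or quantile scaling, and those of MCM3, MCM4, GINS2, PCNA, RPA2 and CHAF1B with a correction for GC content and length.

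The libraries of each group differed among themselves in these genes. Summed over the 48 genes, the 3 NC libraries held 2101, 2413 and 2172 TPM and the 3 siBCAT1 libraries 2828, 2882 and 2729 TPM. Each siBCAT1 library was above each NC library, and the replication genes took 0.211% to 0.243% of the transcripts in NC and 0.275% to 0.290% in siBCAT1. NC replicate 2 held the highest NC value for 35 of the 48 genes and lay above the NC mean for 40 of them, against 9 and 11 in NC replicates 1 and 3. Among the siBCAT1 libraries, replicate 3 held the lowest value for 31 genes and replicate 2 the highest for 26. The median over the genes of log2(TPM + 1) minus the NC mean was -0.08, 0.14 and -0.04 in the NC libraries and 0.34, 0.41 and 0.24 in the siBCAT1 libraries.

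**Figure D2:**
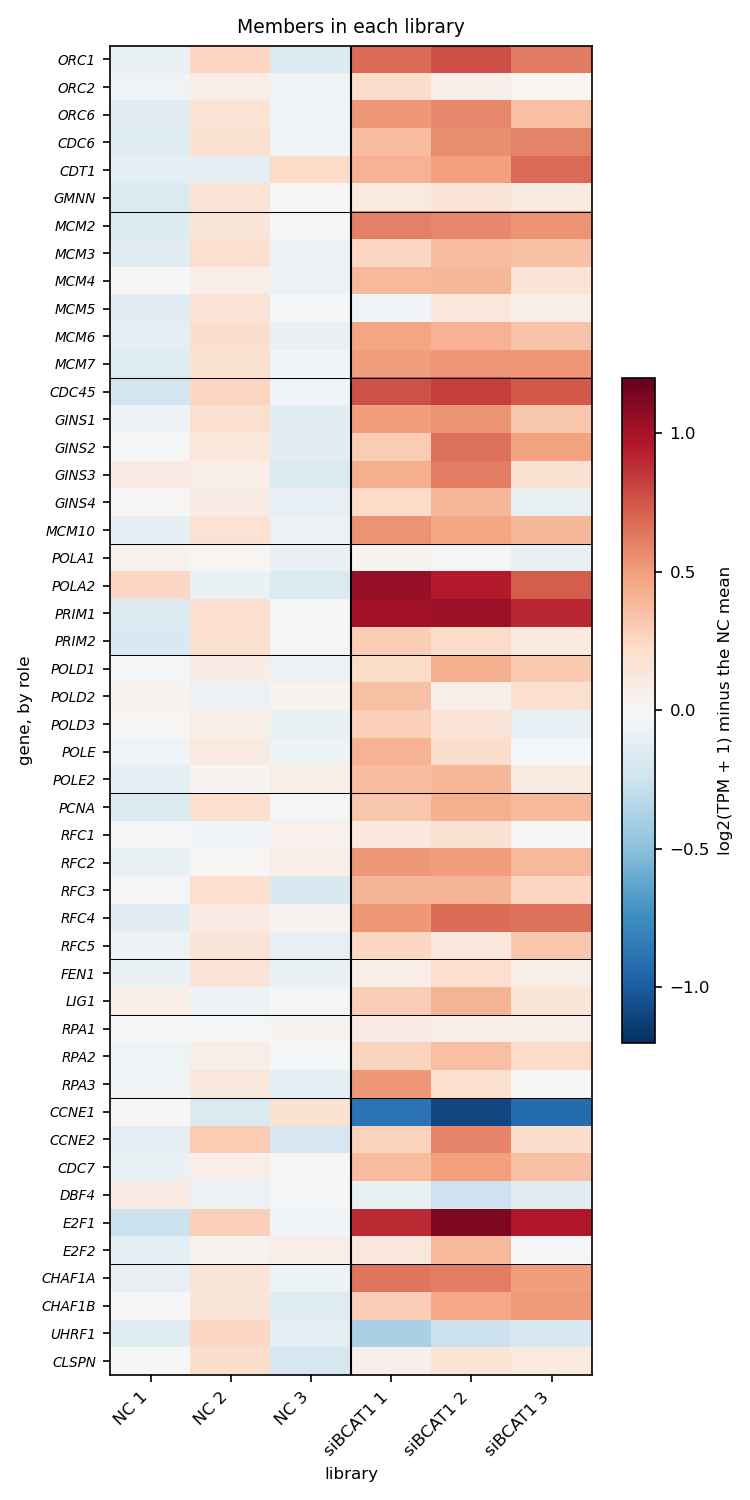
Log2(TPM + 1) minus the NC mean for each of the 48 genes (vertical axis, ordered by role, black lines between roles) in each of the 6 libraries (horizontal axis), from blue (lower) to red (higher). NC replicate 2 is redder than the other NC libraries, and CCNE1, DBF4 and UHRF1 are the genes in blue in all 3 siBCAT1 libraries without overlap with NC.

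The DNA just before the start site is shown for 6 genes whose changes the results turn on: E2F1, CDC45, POLA2, MCM7 and PRIM1, which rose in all 16 refits, and CCNE1, which fell in them. Each stretch is the 120 bases directly before the RefSeq start site (GRCh38.p14), written 5′ to 3′ in the direction of transcription. Capitals mark matches on either strand, which may overlap, to the E2F words TTTCCCGC, TTTCCCGG, TTTCGCGC, TTTCGCGG, TTTGCCGC, TTTGCCGG, TTTGGCGC and TTTGGCGG. E2F1 lies on the minus strand (chr20:33686386-33686505), CDC45 on the plus strand (chr22:19479800-19479919), POLA2 on the plus strand (chr11:65261842-65261961), MCM7 on the minus strand (chr7:100101398-100101517), PRIM1 on the minus strand (chr12:56752324-56752443) and CCNE1 on the plus strand (chr19:29811871-29811990).
E2F1: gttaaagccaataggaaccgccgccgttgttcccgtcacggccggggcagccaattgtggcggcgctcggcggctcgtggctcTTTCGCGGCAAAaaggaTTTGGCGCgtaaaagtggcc
CDC45: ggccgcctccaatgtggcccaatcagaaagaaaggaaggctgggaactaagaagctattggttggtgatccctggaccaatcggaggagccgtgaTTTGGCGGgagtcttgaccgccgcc
POLA2: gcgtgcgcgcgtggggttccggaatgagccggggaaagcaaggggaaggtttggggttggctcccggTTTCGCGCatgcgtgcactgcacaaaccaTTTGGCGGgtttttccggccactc
MCM7: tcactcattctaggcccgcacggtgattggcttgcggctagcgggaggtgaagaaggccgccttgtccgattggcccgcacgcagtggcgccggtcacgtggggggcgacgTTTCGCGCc
PRIM1: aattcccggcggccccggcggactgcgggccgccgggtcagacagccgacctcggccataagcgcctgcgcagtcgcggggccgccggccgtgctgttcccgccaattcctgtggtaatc
CCNE1: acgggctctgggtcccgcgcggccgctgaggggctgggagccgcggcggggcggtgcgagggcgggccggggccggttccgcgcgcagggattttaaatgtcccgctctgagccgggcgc
The E2F1 stretch held 3 matches, with the first starting 37 bases before the start site and overlapping the next. POLA2 held 2, and CDC45 and MCM7 held 1 each, 25 and 9 bases before the start. PRIM1 and CCNE1 held none of these words, in genes whose changes went opposite ways. RefSeq gave 3 windows each for CDC45 and MCM7, of which the first was used. The CDC45, POLA2 and MCM7 stretches lie wholly inside the gene as annotated elsewhere, and those of E2F1, PRIM1 and CCNE1 partly. Matches, their absence and their distances therefore depend on the start site chosen.

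Over the windows of 250 bases before to 50 bases after the start site, which RefSeq gave for 41 of the 48 genes, the E2F words were present in 24 (58.5%). They were present in 1046 of 9975 tested genes with a window (10.49%) and in 1693 of all 27305 genes with a window (6.2%). Among replication genes that rose, 14 of 22 held a word, and among those not past the test, 10 of 18. The word CCAAT stood in 23 of the 41 (56.1%) against 37.3% of tested genes with a window, and the word TTTGAA, the core of the element known from G2/M genes, in 1 (2.44%) against 9.46%. In a list of 30 G2/M genes, by contrast, 14 of the 24 with a window held TTTGAA and 4 held an E2F word, while 17 (70.8%) held CCAAT. In the other lists of related genes described below, E2F words were also more frequent than over all tested genes. They stood in 26.1% of other replisome and origin-firing genes, 31.8% of G1/S regulators and 37.5% of other S-phase genes with a window. These letter matches are descriptions and say nothing of binding.

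Genes that mark and license origins rose in 4 of 6 cases, with a median log2 fold change of 0.50. Beside this count and those of the other roles below stands the 20.4% of all tested genes averaging 5 TPM or more that were called higher. ORC1, the largest subunit of the origin recognition complex, read 7.01, 9.20 and 6.61 TPM in NC and 12.5, 13.6 and 12.2 TPM in siBCAT1, a log2 fold change of 0.69 (SE 0.13, limma adjusted p = 0.00933). ORC6, its smallest subunit, read 61.1, 75.2 and 65.5 TPM against 96.4, 100.5 and 86.6 TPM (0.49, SE 0.10, limma adjusted p = 0.0101). Neither gene overlapped between groups. CDC6, the ATPase that helps load the helicase, read 33.7, 42.6 and 36.4 TPM in NC and 48.6, 55.5 and 57.1 TPM in siBCAT1 (0.51, SE 0.11, limma adjusted p = 0.0129). CDT1, which brings the helicase to the origin, read 25, 25.1 and 32.2 TPM against 36.7, 38.7 and 44.3 TPM (0.53, SE 0.12, limma adjusted p = 0.0185). The groups of these loaders were also apart. GMNN, the inhibitor of CDT1, was at 43.6 ± 5.07 TPM in NC and 47.4 ± 0.871 TPM in siBCAT1 (SD, n = 3 each) and did not pass the test (0.12, limma adjusted p = 0.363), with a sign that turned (-0.02) after correction for GC content and length. ORC2, another subunit of the complex, had a log2 fold change of 0.10 (limma adjusted p = 0.454). The CDC6 call was lost, at adjusted p between 0.0525 and 0.0560 in limma, without NC replicate 1 or 3 or siBCAT1 replicate 2 or 3, and the CDT1 call, between 0.0525 and 0.0786, without NC replicate 1 or 2 or siBCAT1 replicate 2 or 3.

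The MCM2 to MCM7 genes encode the 6 subunits of the helicase ring, which stand in equal number in the complex. Of these, 5 rose and MCM5 did not pass the test. MCM2 read 64.5, 80.3 and 73.1 TPM in NC and 110.8, 108.3 and 105.5 TPM in siBCAT1, a log2 fold change of 0.57 (SE 0.09, limma adjusted p = 0.00353). MCM7 read 132.5, 166.3 and 143.3 TPM against 208.1, 212.2 and 210.6 TPM (0.52, SE 0.08, limma adjusted p = 0.00499). In both the siBCAT1 libraries were closer together than the NC libraries, with no overlap. MCM6 read 34.2, 43.3 and 35 TPM in NC and 52.0, 50.2 and 47.5 TPM in siBCAT1 (0.41, SE 0.10, limma adjusted p = 0.0239). MCM3 read 75.4, 94.3 and 78.4 TPM against 98.1, 106.9 and 105.1 TPM (0.32, SE 0.09, limma adjusted p = 0.0394). MCM4 read 127.2, 133.2 and 121.5 TPM against 166.9, 167.8 and 142.9 TPM (0.32, SE 0.08, limma adjusted p = 0.0235). These 3 did not overlap either, though the lowest siBCAT1 value of MCM3 was only just above NC replicate 2. MCM5 read 51.6, 63.4 and 56.1 TPM in NC and 55.6, 62.7 and 59.5 TPM in siBCAT1, values that overlapped (0.06, SE 0.09, limma adjusted p = 0.675), and its sign turned under quantile normalization (-0.03) and without NC replicate 1 (-0.01). Without any single library other than NC replicate 2, the MCM3 and MCM6 calls were lost, at adjusted p between 0.0766 and 0.125 and between 0.0562 and 0.0871 in limma. The MCM4 call was lost, between 0.0778 and 0.0852, without NC replicate 1 or 3 or siBCAT1 replicate 1 or 2.

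**Figure D3:**
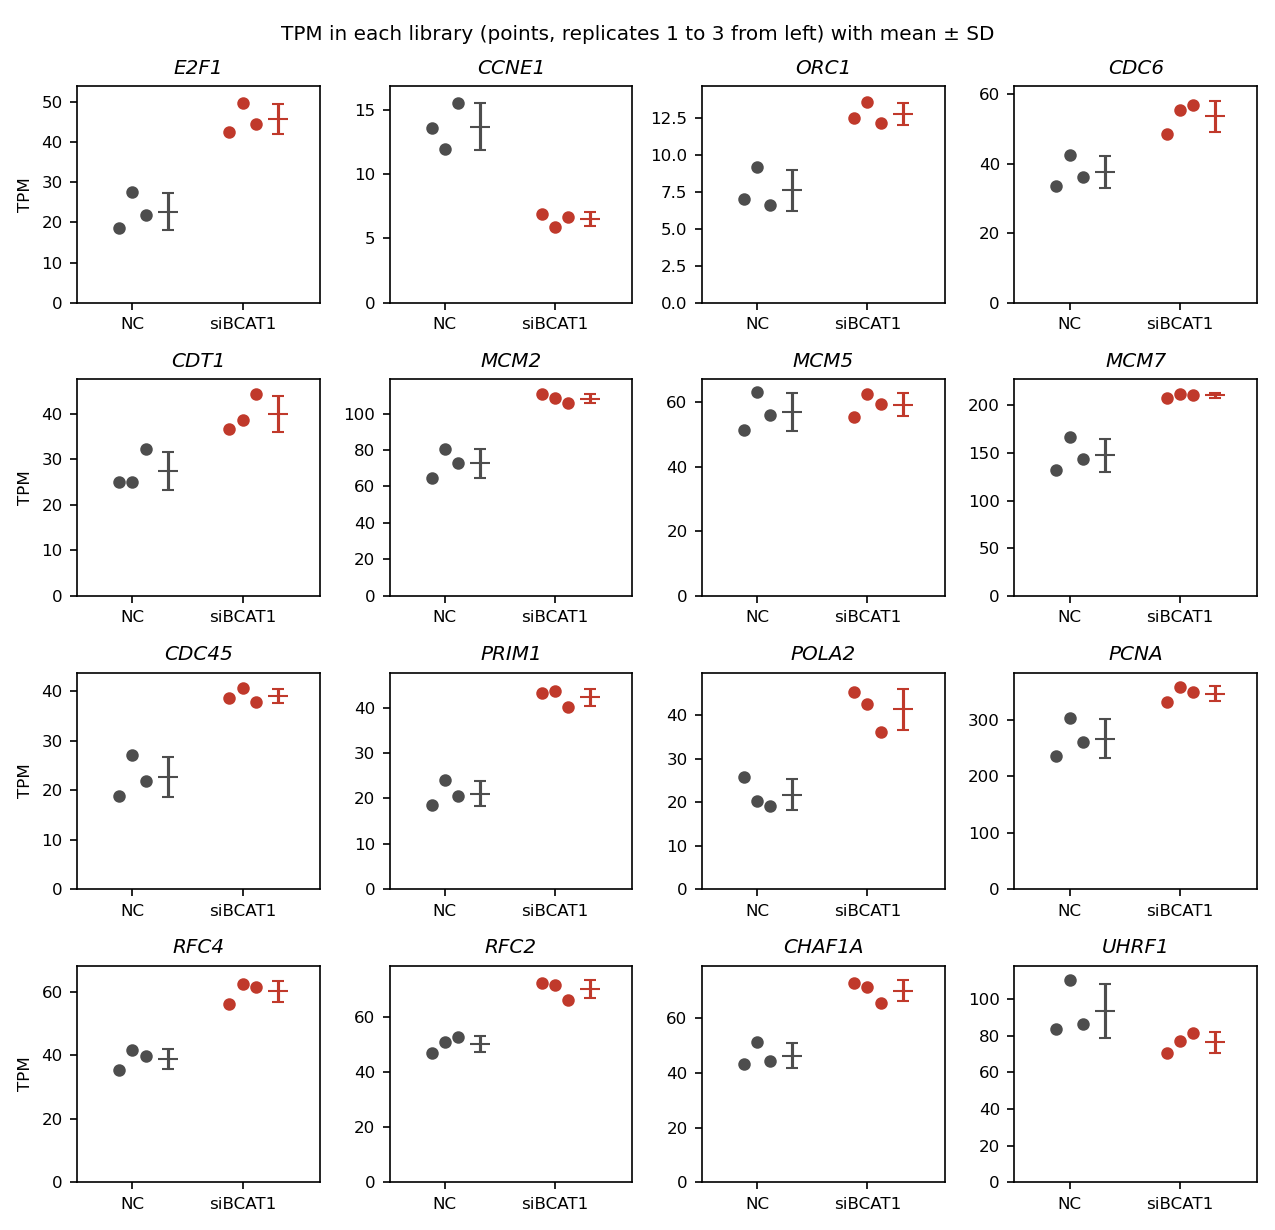
TPM (vertical axis, linear and from 0) of 16 of the genes in each NC library (grey) and each siBCAT1 library (red), with the group mean ± SD beside the points. PRIM1, POLA2, E2F1 and CDC45 stand well above NC, CCNE1 stands below it, and the MCM5 groups overlap.

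Among the partners that turn the ring into the active helicase, 4 of 6 rose and the median log2 fold change was 0.46. CDC45, which closes the ring together with GINS, read 18.9, 27.1 and 21.9 TPM in NC and 38.7, 40.6 and 37.9 TPM in siBCAT1, a log2 fold change of 0.77 (SE 0.13, limma adjusted p = 0.00489). MCM10, needed for the start of unwinding, read 26.5, 32.4 and 27.1 TPM against 41.9, 40.0 and 38.0 TPM (0.47, SE 0.10, limma adjusted p = 0.0113). Both were apart between groups. Of the 4 GINS subunits, GINS1 read 17.9, 21.6 and 17.0 TPM in NC and 26.9, 27.6 and 23.7 TPM in siBCAT1 (0.45, SE 0.11, limma adjusted p = 0.0234). GINS2 read 9.19, 10.3 and 8.44 TPM against 11.7, 15.2 and 13.4 TPM (0.48, SE 0.12, limma adjusted p = 0.0271). GINS3 just missed the threshold (0.41, SE 0.13, limma adjusted p = 0.0513), although its groups did not overlap, and GINS4 was at 0.18 (limma adjusted p = 0.351). The GINS1 call was lost, at adjusted p between 0.0800 and 0.0898 in limma, without NC replicate 1 or 3 or siBCAT1 replicate 1 or 2, and the GINS2 call, between 0.0828 and 0.0950, without NC replicate 1 or 3 or siBCAT1 replicate 2 or 3. MCM10 reached 0.0505 without siBCAT1 replicate 1, and GINS3 passed at 0.0346 without siBCAT1 replicate 3.

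Polymerase alpha-primase, which lays the RNA-DNA primers of each new strand, rose in 2 of its 4 genes. PRIM1, the catalytic primase subunit, read 18.5, 24 and 20.6 TPM in NC and 43.1, 43.6 and 40.1 TPM in siBCAT1, a log2 fold change of 0.98 (SE 0.10, limma adjusted p = 0.00102). POLA2, the accessory subunit of the polymerase, read 25.8, 20.4 and 19.0 TPM against 45.4, 42.6 and 36.2 TPM (0.90, SE 0.13, limma adjusted p = 0.0034). In each, the lowest siBCAT1 value was far above the highest NC value. POLA1, the catalytic subunit, read 15.6, 15.3 and 14.2 TPM in NC and 15.4, 14.8 and 14.2 TPM in siBCAT1, which overlapped (-0.02, SE 0.08, limma adjusted p = 0.860), and its sign turned without NC replicate 1 (0.0023) or siBCAT1 replicate 3 (0.0041). PRIM2, the large primase subunit, was at 23.1 ± 3.13 TPM and 26.8 ± 1.71 TPM (0.21, limma adjusted p = 0.199). PRIM1 shares its strand and part of its locus with NACA, a far more abundant gene named here after its values were seen, at 1211 ± 27.7 TPM in NC and 1164 ± 23.4 TPM in siBCAT1 (-0.06, limma adjusted p = 0.312). How reads in the shared part were divided between them is not given in the sources used here. The other members with a gene of at least 1 TPM overlapping on the same strand were POLA2, POLD3, FEN1 and CHAF1B, and 17 had one on either strand. Pseudogene copies, known by name for 7 of the 48 genes, were at or near 0. The library kit keeps strand, but the strand setting of the counting is not given.

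Of the 5 genes of the main copying polymerases, 1 passed the test (20%), which was POLD1. That share is near the 20.4% called higher among all tested genes averaging 5 TPM or more. The median log2 fold change over the 5 was 0.21. POLD1, the catalytic subunit of polymerase delta, read 40.1, 42.9 and 38.3 TPM in NC and 47.1, 54.8 and 50.5 TPM in siBCAT1 (0.32, SE 0.08, limma adjusted p = 0.0268). Its groups did not overlap, and the call was lost, at adjusted p between 0.0737 and 0.0844 in limma, without NC replicate 1 or 3 or siBCAT1 replicate 2 or 3. The other delta subunits, POLD2 and POLD3, had log2 fold changes of 0.20 and 0.11 (limma adjusted p = 0.111 and 0.50). POLE, the catalytic subunit of polymerase epsilon, was at 0.21 and its partner POLE2 at 0.29 (limma adjusted p = 0.236 and 0.0784), with POLE2 passing at 0.0415 without siBCAT1 replicate 3.

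The sliding clamp and 2 subunits of its loader rose. PCNA, the clamp that tethers polymerases to DNA and the most abundant of the 48 genes, read 236.2, 303.4 and 261.0 TPM in NC and 332.5, 358.3 and 348.7 TPM in siBCAT1, a log2 fold change of 0.38 (SE 0.09, limma adjusted p = 0.0206). RFC4 read 35.4, 41.6 and 39.6 TPM against 56.1, 62.5 and 61.5 TPM (0.62, SE 0.08, limma adjusted p = 0.00255). RFC2 read 47.2, 50.9 and 53.0 TPM against 72.6, 71.9 and 66.4 TPM (0.47, SE 0.07, limma adjusted p = 0.00384). All 3 were apart between groups, and RFC2 and RFC4 encode small subunits of the loader. The remaining small subunits, RFC3 and RFC5, had log2 fold changes of 0.36 and 0.23 (limma adjusted p = 0.0551 and 0.112), and RFC1, the large subunit, 0.11 (limma adjusted p = 0.308). The PCNA call was lost without any single library other than NC replicate 2, at adjusted p between 0.0569 and 0.0802 in limma. Without NC replicate 2, RFC3 passed at 0.0215 and RFC5 at 0.0442.

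The genes that finish the lagging strand and those that cover single-stranded DNA had median log2 fold changes of 0.20 and 0.24. LIG1, the ligase that seals Okazaki fragments, read 21.0, 19.1 and 19.6 TPM in NC and 24.7, 26.8 and 22.1 TPM in siBCAT1, without overlap but not past the test (0.28, SE 0.09, limma adjusted p = 0.0618). FEN1, the flap nuclease that trims them, was at 117 ± 11.4 TPM and 127 ± 6.57 TPM (0.12, limma adjusted p = 0.314). Of the 3 subunits of RPA, the single-strand binding complex, RPA2 read 77.3, 84.4 and 78.7 TPM in NC and 96.6, 103.4 and 93.8 TPM in siBCAT1 (0.29, SE 0.07, limma adjusted p = 0.0185). RPA1 and RPA3 had log2 fold changes of 0.08 and 0.24 (limma adjusted p = 0.303 and 0.246), and that of RPA1 turned to -0.00021 under quantile normalization. RPA2 was apart between groups, and its call was lost, at adjusted p between 0.0530 and 0.0620 in limma, without NC replicate 1 or 3 or siBCAT1 replicate 1 or 2.

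Regulators of S-phase entry moved in both directions. E2F1, the transcription factor that activates many genes of this set, read 18.6, 27.6 and 21.9 TPM in NC and 42.6, 49.8 and 44.6 TPM in siBCAT1, a log2 fold change of 0.99 (SE 0.14, limma adjusted p = 0.00292), the highest of the 48. CCNE1, which encodes cyclin E1, the partner of CDK2 at the G1/S boundary, read 13.6, 11.9 and 15.5 TPM in NC and 6.90, 5.85 and 6.68 TPM in siBCAT1, and fell by 0.97 on the log2 scale (SE 0.12, limma adjusted p = 0.00198). The groups of each were wide apart, in opposite directions. CCNE2, for cyclin E2, read 6.25, 8.65 and 5.76 TPM against 8.41, 10.7 and 8.03 TPM, which overlapped (0.36, SE 0.17, limma adjusted p = 0.164). CDC7, the kinase that activates the loaded helicase, read 5.85, 6.63 and 6.20 TPM in NC and 8.41, 9.14 and 8.24 TPM in siBCAT1 (0.41, SE 0.10, limma adjusted p = 0.0245). Its regulatory subunit DBF4 read 36.3, 32.2 and 33.3 TPM against 31.8, 28.4 and 30.7 TPM, lower without overlap but not past the test (-0.16, SE 0.08, limma adjusted p = 0.188). E2F2 had a log2 fold change of 0.16 (limma adjusted p = 0.416). The CDC7 call was lost without any single library other than NC replicate 2, at adjusted p between 0.0577 and 0.0888 in limma.

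Of the genes for chromatin assembly and the fork checkpoint, both subunits of the histone chaperone CAF-1 in the set rose. CHAF1A read 43.1, 51.3 and 44.2 TPM in NC and 72.6, 71.2 and 65.4 TPM in siBCAT1, a log2 fold change of 0.59 (SE 0.09, limma adjusted p = 0.00335). CHAF1B read 9.33, 10.4 and 8.22 TPM against 11.6, 13.2 and 13.6 TPM (0.42, SE 0.11, limma adjusted p = 0.0324). Neither overlapped, and the CHAF1B call was lost without any single library other than NC replicate 2, at adjusted p between 0.0530 and 0.108 in limma. UHRF1, which recruits the maintenance DNA methyltransferase to new DNA, read 83.8, 110.5 and 86.2 TPM in NC and 70.4, 77.2 and 81.7 TPM in siBCAT1, below NC in all 3 libraries but not past the test (-0.28, SE 0.12, limma adjusted p = 0.117). CLSPN, an adaptor of the checkpoint kinase at stalled forks, had a log2 fold change of 0.11 (limma adjusted p = 0.547).

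The 23 genes not past the test had log2 fold changes between -0.28 and 0.41, with 20 of them above 0, and adjusted p between 0.0513 and 0.860 in limma. In 6 of these the siBCAT1 values were all above NC and in 2 all below, against 3727 and 2566 of the 14286 tested genes, called or not. The values nearest the threshold were those of CHAF1B (0.0324) and MCM3 (0.0394) on one side and GINS3 (0.0513) and RFC3 (0.0551) on the other, which differed little in size.

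Some genes whose products work as partners or are related did not keep the same proportion. The pairs were chosen after their values were seen and their ratios of TPM are given with no test. Each joined a gene past the test to one not past it, so groups that lie apart add no evidence. Other partners moved alike, such as MCM2 and MCM7 (0.57 and 0.52) or CHAF1A and CHAF1B (0.59 and 0.42). PRIM1 to PRIM2 was 0.917, 0.907 and 0.904 in NC and 1.52, 1.61 and 1.60 in siBCAT1, with a spread within groups far under the difference between them. POLA2 to POLA1 rose from 1.44 ± 0.181 to 2.79 ± 0.209 (SD, n = 3 each). MCM7 to MCM5 was 2.58 ± 0.0360 in NC and 3.55 ± 0.179 in siBCAT1, and MCM2 to MCM5 was 1.27 ± 0.0281 and 1.83 ± 0.141. These helicase ratios were tighter across the NC libraries than the levels of the genes themselves. In siBCAT1, relative to their means, they were wider than the levels of MCM7 (210.3 ± 2.11 TPM) and MCM2 (108.2 ± 2.62 TPM). E2F1 to E2F2 went from 3.82 ± 0.604 to 6.79 ± 0.799 and CDT1 to GMNN from 0.635 ± 0.111 to 0.843 ± 0.0900. CCNE1 to CCNE2 was 2.17, 1.38 and 2.70 in NC and 0.821, 0.546 and 0.832 in siBCAT1, so CCNE1 was the higher of the cyclin E genes in every NC library and the lower in every siBCAT1 library.

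**Figure D4:**
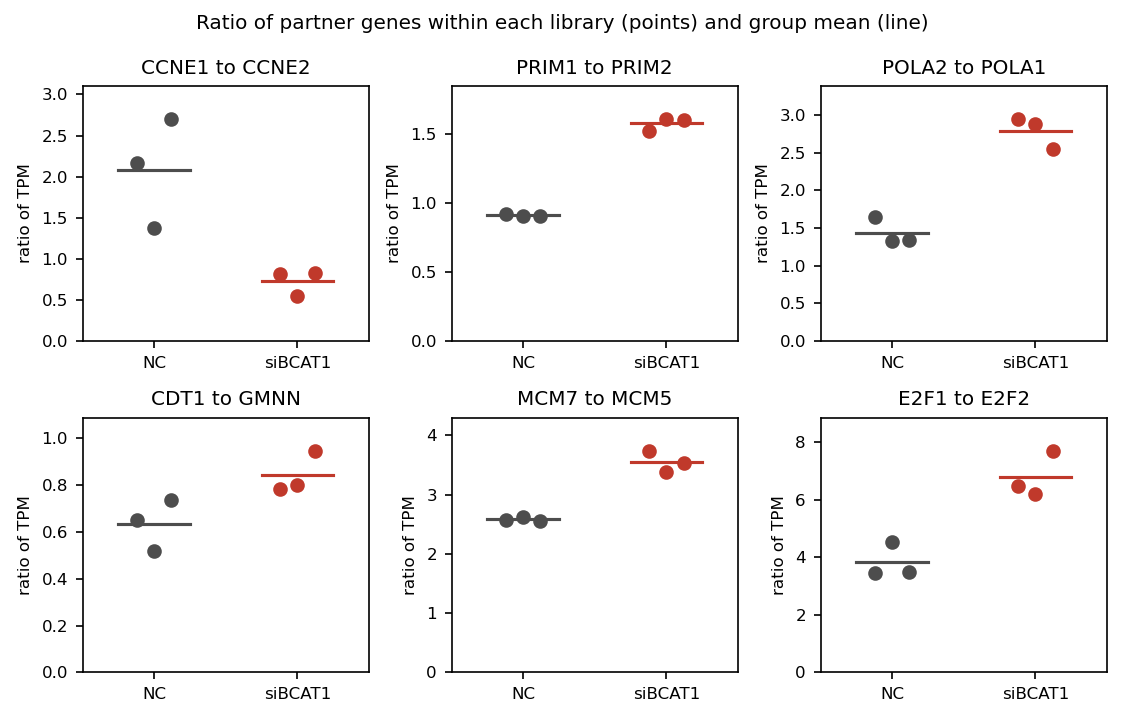
Ratio of TPM between partner genes within each library (vertical axis, from 0), for 3 NC libraries (grey) and 3 siBCAT1 libraries (red), with the group mean as a line. For these pairs, chosen after their values were seen, the groups do not overlap, and CCNE1 to CCNE2 is above 1 in NC and below 1 in siBCAT1.

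Related genes outside the set were counted from lists by function. Of 29 other replisome and origin-firing genes, 11 rose (37.9%) and 1 fell (3.45%), with a list median of 0.16. The shares over all tested genes were 16.7% and 10.4%. The 1 that fell was POLE3 (-0.45, limma adjusted p = 0.0126), a gene named here after its values were seen. The POLE3 call was lost without siBCAT1 replicate 3 (limma adjusted p = 0.0510). The largest rise was that of TIPIN, a fork protection factor, from 10.7 ± 2.47 to 29.6 ± 2.83 TPM (1.40, SE 0.16, limma adjusted p = 0.0012), and its partner TIMELESS rose from 19.3 to 28.3 TPM (0.53, limma adjusted p = 0.00374). SUPT16H, a subunit of the histone chaperone FACT, rose by 0.66 and PCLAF, a PCNA-binding protein, by 0.56 (limma adjusted p = 0.000811 and 0.0024). Of 20 other S-phase genes, 11 rose (55%) and 0 fell, with a median of 0.29. The number that rose was 4 without siBCAT1 replicate 3, 5 without NC replicate 1, NC replicate 3 or siBCAT1 replicate 1, and 6 without siBCAT1 replicate 2. It was also 5 with no filter on low values, 6 with the GC content and length correction and the replicate block together, and 7 under median-ratio or quantile scaling or with no trend. The genes of this list that rose included NASP, a histone chaperone, at 87.9 ± 16.5 and 165 ± 3.97 TPM (0.91, limma adjusted p = 0.00227). RRM1, a subunit of the enzyme that makes deoxynucleotides, was among them, at a log2 fold change of 0.59 (limma adjusted p = 0.00779). FANCI, a DNA crosslink repair gene, was at 0.59 (limma adjusted p = 0.00467).

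Of 27 tested G1/S regulators, 6 rose (22.2%) and 6 fell (22.2%), with a median of 0.11. The share that rose was near the 20.4% of all genes averaging 5 TPM or more, and 10.4% of all tested genes were lower. The number that rose was 3 without NC replicate 1, siBCAT1 replicate 1 or siBCAT1 replicate 2, and also with no filter on low values or no trend, and 10 with the replicate block. Those that fell most were CCND1, for cyclin D1, and the inhibitors of cyclin-dependent kinases CDKN1A (p21), CDKN1B (p27) and CDKN1C (p57). CDKN1A was at 29.9 ± 6.96 TPM in NC and 7.20 ± 0.751 TPM in siBCAT1 (-1.89, SE 0.18, limma adjusted p = 0.000662). CDKN1B went from 46.7 ± 4.83 to 17.5 ± 1.97 TPM (-1.37, SE 0.11, limma adjusted p = 0.000418) and CDKN1C from 25.3 ± 6.81 to 9.02 ± 0.923 TPM (-1.36, SE 0.19, limma adjusted p = 0.00296). CCND1 went from 243 ± 35.4 to 107 ± 8.45 TPM (-1.17, SE 0.11, limma adjusted p = 0.000745). These 3 inhibitors and cyclin D1 fell in the same libraries in which E2F1 rose and CCNE1 fell, and a link was not tested. The other inhibitors of the list, named here after their values were seen, did not pass the test. CDKN2A was at 0.05, CDKN2B at 0.19, CDKN2C at 0.15 and CDKN2D at -0.32 (limma adjusted p between 0.0843 and 0.703). RB1, the retinoblastoma gene, had a log2 fold change of 0.11 (limma adjusted p = 0.597).

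Genes of the G2/M list, most of which act further along the cycle, were split. Of 30, 10 rose (33.3%), against 16.7% of all tested genes and 20.4% of those averaging 5 TPM or more. A further 1 fell (3.33%, against 10.4%) and 19 did not pass the test. The list median was 0.09 against 0.04 over all tested genes. The number that fell was 4 under quantile normalization, 2 with the replicate block or with the GC content and length correction, and 5 with both of these together. BIRC5 (survivin) rose by 0.66, MYBL2 by 0.61 and CENPF by 0.53 (limma adjusted p = 0.0019, 0.00127 and 0.00227), while ANLN, a cytokinesis scaffold, went from 135.6 ± 13.3 to 86.3 ± 7.40 TPM (-0.64, limma adjusted p = 0.00328). MKI67, the common proliferation marker, named here after its values were seen, was at 54.2 ± 1.95 and 53.2 ± 3.32 TPM (-0.03, limma adjusted p = 0.813). Its sign turned after correction for GC content and length (0.0066), without NC replicate 2 (0.00095) and without siBCAT1 replicate 2 (0.02). The genes of these lists that were named by size, and RB1, kept their direction and their side of the threshold in the 16 refits. Requiring a log2 fold change of at least 1 as well left TIPIN, CDKN1A, CDKN1B, CDKN1C and CCND1 among them.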

How the data were processed

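RNA was extracted with TRIzol and libraries were made with a stranded mRNA kit (Illumina). The submitters' processing notes name fastp, HISAT2, StringTie and GRCh38, and their versions and the annotation are not given in the sources used here. The authors deposited one table of TPM per gene and library, a unit read from the values, whose sum is nearly the same in each library. No depth can be had from TPM, so precision rests on the spread between 3 libraries.

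Groups and replicate numbers came from the titles. All genes averaging 1 TPM or more were compared on log2(TPM + 1) across the 6 libraries by limma (version 3.58.1, R 4.3.3), using lmFit and eBayes with its trend option. The tests were two-sided, p-values were adjusted by Benjamini and Hochberg, and 0.05 was the threshold. The script was checked on simulated data. A single-gene exact permutation test of 3 against 3 cannot go below p = 0.1 and was not used. The 48 genes and the lists were chosen with earlier results of these data known.

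Values in every library were printed for the 24 called genes with the largest change, for at least 1 gene of each role, and for E2F1, CCNE1, PCNA and MCM2 to MCM7. Of each other list, up to 4 called genes with the largest change were named, plus CCND1, CDKN1A and RB1. CCND2 was under the filter, and 1 gene that the rule names is not reported here. Other genes were named after their values were seen. Alternatives were other filters (none, 5 TPM), 0.1 as pseudocount, a replicate block, loess adjustment (span 0.5) for length and GC content, median-ratio and quantile scaling, limma with no trend or with arrayWeights, a log2 fold change of at least 1, and leaving out each library. Sequences came from RefSeq (GRCh38.p14). For genes with several windows the first was used.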

Additional observations from a re-analysis of the deposited data

How the results depend on the processing

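BCAT1 stayed past the threshold under every alternative, between -2.28 and -2.03 when a library was left out. Against 24 replication genes called higher and 1 lower, omitting the filter on low values gave 14 higher and requiring a log2 fold change of at least 1 gave 0 in each direction. Quantile normalization gave 18 higher and 2 lower, the second being DBF4. Leaving out 1 library gave between 12 (without NC replicate 1 or siBCAT1 replicate 2) and 25 (without NC replicate 2) higher. In the related lists, 38 genes were higher and 8 lower. No filter gave 25 higher, a log2 fold change of at least 1 gave 1 higher and 4 lower, quantile normalization and the GC and length correction with the replicate block each gave 13 lower, and leaving out 1 library gave 23 to 43 higher. The causes were not tested. The median over the replication genes stayed between 0.24 and 0.39. Signs turned for GMNN (-0.0187 with the GC and length correction, with or without the block), MCM5 (-0.0287 under quantile normalization, and between -0.0098 and 0.136 without single libraries, below 0 without NC replicate 1), POLA1 (between -0.0630 and 0.0041 without single libraries, above 0 without NC replicate 1 or siBCAT1 replicate 3) RPA1 (-0.00021 under quantile normalization) and MKI67 (0.00659 with the GC and length correction, with or without the block, and between -0.0622 and 0.0235 without single libraries), none of them past the threshold. Of the 23 genes not called, 8 passed under at least 1 alternative.

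The replicate numbers were not taken as pairs, and no label states that they are. The correlations of deviations between libraries of the same number were 0.0844, 0.102 and 0.124. Those between libraries of different numbers were all negative, from -0.0814 to -0.0134. Every library correlated best with its own number, a hint from the data and not from the design. With the replicate block 28 genes were higher and 1 lower. TPM holds no depth, so counting error cannot be separated from other spread between libraries.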
